A study of Mus musculus with 13 samples.

Results

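The genes described here make and load the peptides that MHC class I molecules carry to the cell surface. They are the peptide transporter genes *Tap1* and *Tap2*, the loading factor gene *Tapbp*, the trimming enzyme gene *Erap1*, the immunoproteasome genes *Psmb8*, *Psmb9* and *Psmb10*, the proteasome activator genes *Psme1* and *Psme2*, and *Nlrc5*, which encodes a transactivator of class I genes. These 10 genes were chosen by name, with earlier results of these data known, and all 10 were found among the 13222 genes of the table. All 10 also passed the filter on low reads that left 12319 genes for testing. Bulk RNA of 4T1-Thy1.1 cells, a mouse mammary carcinoma line of BALB/c origin that carries a Thy1.1 transgene, was sequenced after 48 hours in 4 conditions, to examine how IL-17A bears on the response to doxorubicin (DOX). Of the 13 libraries, 3 came from control cells given neither agent and 4 from cells given 200 ng/mL DOX. A further 3 came from cells given 200 ng/mL DOX together with 25 ng/mL recombinant mouse IL-17A, and 3 from cells given that amount of IL-17A alone. The labels give DMEM/F12 with FBS as the medium of all cells, whereas the methods of the study name an RPMI medium for this line. A single cell line was used, and the labels name no other cells in the cultures. DOX is a topoisomerase poison that leads to DNA breaks, and IL-17A is a cytokine made mainly by T cells. The methods of the study speak of biological replicates for its data in general, and neither they nor the labels say whether the libraries of a group came from separate cultures. The p-values therefore measure only the spread between these libraries, which may be technical.

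In the class I pathway, proteasomes cut cytosolic proteins into peptides. The catalytic subunits of the 20S core can be exchanged for the immunoproteasome subunits encoded by *Psmb8*, *Psmb9* and *Psmb10*, which changes the peptides that are cut, and the PA28 ring made from *Psme1* and *Psme2* products caps the core and opens its gate. The TAP1 and TAP2 proteins pump peptides into the endoplasmic reticulum, where tapasin (*Tapbp*) holds empty class I molecules near the transporter and ERAP1 trims peptides that are too long. Interferons are known to induce most of these genes together, through STAT and IRF factors and through NLRC5, and tumor cells with low levels of them can be poorly seen by CD8 T cells.

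Of these genes, 4 lie next to each other in the MHC class II region of chromosome 17 (GENCODE M21, GRCm38). *Psmb9* lies at chr17:34181987-34187764 on the minus strand, *Tap1* at chr17:34187553-34197225 on the plus strand, *Psmb8* at chr17:34197721-34201454 and *Tap2* at chr17:34203527-34216321. *Psmb9* and *Tap1* point away from each other, and their RefSeq start sites are 226 bases apart, at positions 34187330 and 34187556. *Tapbp* lies on the same chromosome at chr17:33915899-33929292. *Psme1* (chr14:55578123-55581529) and *Psme2* (chr14:55587441-55591113) are also neighbours, whereas *Psmb10* (chr8:105935735-105938444), *Nlrc5* (chr8:94434356-94527272) and *Erap1* (chr13:74639568-74693201) stand alone. The cells are of BALB/c origin and the reference genome is of another mouse strain, and the MHC differs between strains, so reads of these MHC genes may map less completely. This holds for all libraries alike.

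Interferon-regulated promoters often carry paired GAAA elements, read by IRF and STAT factors, or a TTC and GAA pair spaced by 3 bases. RefSeq promoter windows (GRCm38.p6, 250 bases before to 50 after the start site) were given for 8 of the 10 genes, in 9 windows, with none for *Tap2* and *Nlrc5*. Both strands were searched for 2 copies of GAAA in the same direction spaced by 2 or 3 bases, and for TTC and GAA spaced by 3 bases, which can overlap. A GAAA pair was present in 3 of the 9 windows, those of *Psmb8*, *Psme1* and *Erap1*, and in 5.99% of all 32851 windows of the same length (3.44% at a spacing of 2 bases and 2.75% at 3 bases). The TTC and GAA pair was present in the *Psmb8* window and in 8.30% of all windows. The 30 bases around each match are shown on the plus strand, with the match in capitals, because 1 of these genes is among those that rose with DOX and 2 are not:
Psmb8, chr17:34197945-34197974, GAAA pair on the other strand, 3 bases apart: atTTTCCAGTTTCtataaaatgatgctcat
Psmb8, chr17:34198088-34198117, TTC and GAA: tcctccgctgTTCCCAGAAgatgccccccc
Psme1, chr14:55578493-55578522, GAAA pair on the other strand, 2 bases apart: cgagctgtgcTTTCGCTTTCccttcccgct
Erap1, chr13:74639839-74639868, GAAA pair on the other strand, 2 bases apart: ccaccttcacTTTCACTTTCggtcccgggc

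Counted from the RefSeq start site as 0, the matches lie at -248 to -238 and -97 to -89 in *Psmb8*, at 9 to 18 in *Psme1* and at -4 to 5 in *Erap1*. All 4 stretches lie in a 5′ untranslated exon of some GENCODE transcript of their gene. *Tap1*, *Psmb9*, *Psmb10* and *Psme2* rose with DOX and their windows hold neither pair. For comparison, the 120 bases just upstream of the annotated *Psmb10* and *Psme2* genes, where no annotated exon lies, are printed on the minus strand, 5′ to 3′:
Psmb10, chr8:105938445-105938564: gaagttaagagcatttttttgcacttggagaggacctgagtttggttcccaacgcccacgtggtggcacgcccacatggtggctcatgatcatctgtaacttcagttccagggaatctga
Psme2, chr14:55591114-55591233: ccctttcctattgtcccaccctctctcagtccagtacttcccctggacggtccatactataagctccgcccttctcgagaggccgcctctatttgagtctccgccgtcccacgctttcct

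A match is a description of letters, and the absence of one says only that these letters are not in the window.

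Values are the deposited TMM-normalized values, from 3′ end libraries in which a transcript gives about 1 read whatever its length. Each library had between 4445592 and 16930600 reads on listed genes, and 3 reads, taken as the smallest detectable level, correspond to 0.183 to 0.613 units. The rule for a call was a fold change above 2 with an adjusted p under 0.05 (limma with trend on log2(value + 1), Benjamini-Hochberg over 12319 genes). Fold changes are on the log2(value + 1) scale, where the added 1 understates changes of low genes. Fits to the recovered reads gave smaller changes for some genes, among them *Psmb9* and *Psme2*, and larger ones for others. Of the epithelial markers expected in 4T1, 10 of 10 were listed, with *Epcam* between 124 and 733 and a sum of 2035 to 2435 in control, 1212 to 1329 with DOX, 1035 to 1306 in DOX+IL-17A and 1727 to 2105 with IL-17A. Of 20 immune cell markers, 5 were listed and 2 tested. Of the 2, 1 was called higher with DOX+IL-17A against control and against IL-17A, where 6.95% and 4.92% of all tested genes were. *Ptprc*, the pan-leukocyte gene, lay between 2.45 and 3.57 with DOX+IL-17A and between 0 and 1.52 in the other groups. The whole sum was 14.5 to 19.3 in control, 18.3 to 40.3 with DOX, 6.45 to 13.7 with DOX+IL-17A and 3.94 to 7.39 with IL-17A. With DOX+IL-17A the sum thus lay below that of control and DOX, and it reached above that of IL-17A. The largest part of that sum in control and DOX libraries was *Csf1r* (14.1 to 35.01). The part of these markers in the results below was not tested. All 14 muscle markers and 3 of 8 red blood cell markers were listed. Both sums were highest in DOX replicate 1, at 1313 and 66.5, against 646 to 1102 and 0 to 14.4 in the other libraries. Most of the muscle sum was *Tpm1*, which many cell types express, at 896 to 984 with DOX and 960 to 1023 in control. All other muscle markers were highest in a DOX library, among them *Myh4* (80.9, at most 6.77 in the other groups) and *Acta1* (47.2, at most 16.6). The part of the muscle and red blood cell markers in the results below was not tested either. Control replicate 1 stood apart in several of the genes below, and values without it and without DOX replicate 1 are given where they matter. In bulk RNA, fewer cells of a type and less RNA per cell cannot be told apart.

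DOX raised 5 of the 10 genes. With DOX+IL-17A none of the 10 was called against control, where 6.95% of all tested genes were called higher and 5.95% lower. *Tap1*, *Psmb8*, *Psmb9*, *Psmb10* and *Psme2* rose with DOX, by 1.04 to 1.74 on the log2 scale. *Tap2*, *Tapbp*, *Psme1*, *Erap1* and *Nlrc5* were not called, with log2 fold changes of 0.06 to 1.22. Between DOX+IL-17A and DOX, *Tap1* fell by 1.93 and *Psmb8* fell by 1.39, where 0.325% of all tested genes were called lower. IL-17A alone gave no call. The 5 genes that rose compare with 9.15% of all tested genes called higher in the same comparison, and the 0 that fell with 6.18% called lower. The median log2 fold change of the 10 genes was 1.13, and that of all tested genes 0.09. Without DOX replicate 4 the count that rose was 2, and voom, DESeq2 and edgeR each called 3.

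**Figure D1:**
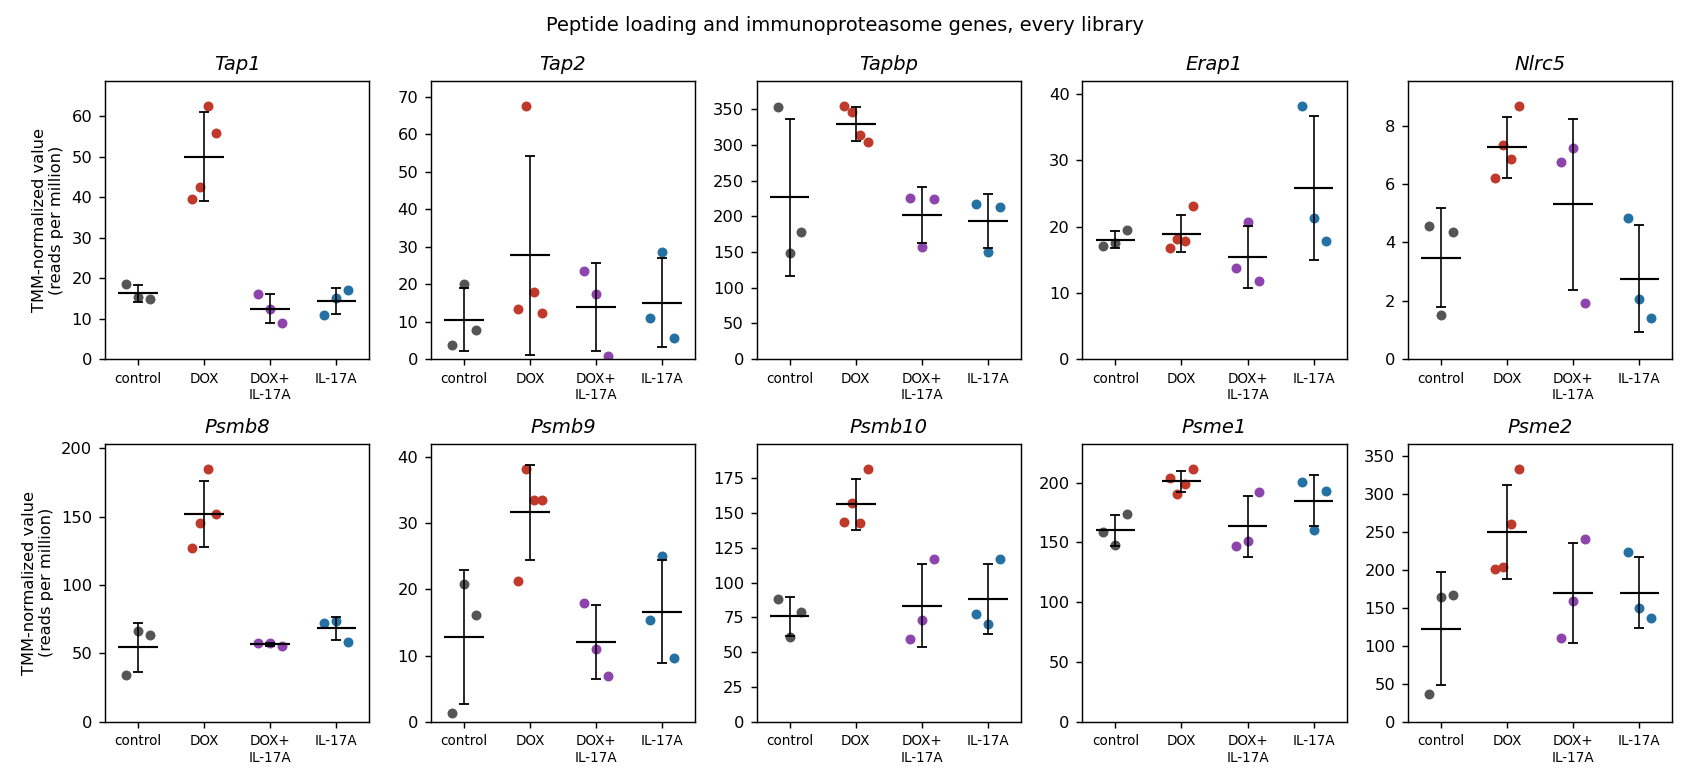
TMM-normalized value (y axis, scaled to a fixed library size, from 0) of each of the 10 genes in every library of the 4 groups (n = 3, 4, 3 and 3); points are libraries, horizontal lines means and bars 1 SD. In *Tap1*, *Psmb8* and *Psmb10* the 4 DOX libraries lie above all 9 others, whereas *Erap1* groups overlap and *Tap2* has a single high DOX library at 67.4.

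*Tap1* encodes 1 of the 2 chains of the transporter that moves peptides into the endoplasmic reticulum. Its values were 18.6, 15.3 and 14.9 in control, 39.5, 42.5, 62.5 and 55.8 with DOX, 16.2, 12.3 and 8.99 in DOX+IL-17A, and 10.9, 15.1 and 17.1 with IL-17A. The DOX libraries were all above the other 9, and the remaining groups overlapped. From control (16.3 ± 2.04, SD, n = 3) to DOX (50.1 ± 10.9, n = 4) the level rose 3.08-fold, a log2 fold change of 1.55 ± 0.27 (SE; limma, adjusted p = 0.00125). With DOX+IL-17A the mean was 12.5 ± 3.59 (n = 3), which is 0.249 times that with DOX, and the log2 fold change was -1.93 ± 0.27 (limma, adjusted p = 0.00521). Without DOX+IL-17A replicate 3 or 5 this adjusted p was 0.0525 or 0.0522 (up to 0.0712 over 22 alternatives, of which 19 called it), and without DOX replicate 1 the rise with DOX was 1.65 (limma, adjusted p = 0.00263).

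*Tap2* encodes the other chain of the transporter, and its levels scattered within every group. The values were 3.72, 20.03 and 7.78 in control, 13.4, 67.4, 17.8 and 12.3 with DOX, 23.5, 17.3 and 0.874 in DOX+IL-17A, and 10.9, 28.5 and 5.74 with IL-17A. All groups overlapped, and DOX replicate 2 was far above the other DOX libraries. The log2 fold change with DOX was 1.22 with a 95% interval of -0.52 to 2.96 (limma, adjusted p = 0.296), so that neither no change nor a rise like that of *Tap1* was outside the interval. Between DOX+IL-17A and DOX it was -1.24 (-2.98 to 0.50; limma, adjusted p = 0.979). Without DOX replicate 2 these values were 0.68 and -0.70. Without control replicate 1 the first was 0.71, and without DOX+IL-17A replicate 5 the second was -0.07. The highest *Tap2* library held 616 reads of the gene and the lowest 14.

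*Tapbp* encodes tapasin, which bridges the transporter and the class I molecule. Its values were 353, 149 and 178 in control, 354, 346, 314 and 304 with DOX, 226, 157 and 224 in DOX+IL-17A, and 217, 149 and 213 with IL-17A. Control replicate 1 was at the level of the DOX libraries, and the other 2 control libraries were below them. The log2 fold change with DOX was 0.64 ± 0.26 (limma, adjusted p = 0.0891), and without control replicate 1 it was 1.01 and was called (limma, adjusted p = 0.00241). All DOX+IL-17A libraries lay below all DOX libraries, with a log2 fold change of -0.72 (-1.27 to -0.17) that was not called (limma, adjusted p = 0.501).

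*Erap1*, the aminopeptidase of the endoplasmic reticulum, was nearest to no change with DOX. Its values were 17.1, 17.5 and 19.4 in control, 16.8, 18.1, 17.9 and 23.1 with DOX, 13.7, 20.8 and 11.8 in DOX+IL-17A, and 38.2, 21.4 and 17.8 with IL-17A. The groups overlapped in every comparison, and IL-17A replicate 2 was the highest library. With DOX the log2 fold change was 0.06 with a 95% interval of -0.55 to 0.68 (limma, adjusted p = 0.901), an interval that ends below a fold of 2. The last 834 bases of *Erap1* overlap *Cast*, which runs on the opposite strand. Whether counting used strand is not given in the sources used here, and without strand the reads of the 2 genes at this end cannot be told apart.

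*Psmb8* encodes the immunoproteasome subunit that takes the place of the *Psmb5* product, the chymotrypsin-like site. Its values were 34.0, 66.2 and 63.3 in control, 127, 145, 185 and 152 with DOX, 57.3, 57.6 and 55.5 in DOX+IL-17A, and 72.5, 73.7 and 58.5 with IL-17A. The 4 DOX libraries were again above the other 9, and the 3 DOX+IL-17A libraries lay within the control range. From 54.5 ± 17.8 (n = 3) in control to 152 ± 24.1 (n = 4) with DOX it rose 2.79-fold (log2 fold change 1.51 ± 0.23; limma, adjusted p = 0.000525), and by 1.21 without control replicate 1. With DOX+IL-17A, at 56.8 ± 1.13 (n = 3), it was 0.373 times the DOX mean (log2 fold change -1.39 ± 0.23; limma, adjusted p = 0.0116). Leaving out any 1 of DOX replicate 3, DOX replicate 4 or the 3 DOX+IL-17A libraries gave adjusted p of 0.0550 to 0.0852 with a log2 fold change of -1.30 to -1.40. The annotation places the noncoding *Gm20496* on the opposite strand across the end of *Psmb8*.

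*Psmb9* encodes the subunit that replaces the *Psmb6* product. Its values were 1.35, 20.9 and 16.1 in control, 21.3, 38.2, 33.6 and 33.5 with DOX, 17.996, 11.0 and 6.93 in DOX+IL-17A, and 15.3, 25.0 and 9.68 with IL-17A. The DOX libraries were above the control libraries, the nearest pair being 21.3 and 20.9, and control replicate 1 held 8 reads of the gene. The log2 fold change with DOX was 1.74 ± 0.60 (limma, adjusted p = 0.0480), and 6 of 22 alternatives called it, with adjusted p from 0.0133 to 0.190. On the recovered reads voom, DESeq2 and edgeR gave log2 fold changes of 1.52, 1.27 and 1.29. Without control replicate 1 the limma value was 0.72 (limma, adjusted p = 0.190). Leaving out any 1 of the 4 DOX libraries, the 3 DOX+IL-17A libraries or IL-17A replicates 2 and 3 also ended the call, at adjusted p of 0.0520 to 0.102 and a log2 fold change of 1.64 to 1.91 (limma). Every DOX+IL-17A library was lower than every DOX library, with a log2 fold change of -1.39 (-2.66 to -0.13) that was not called (limma, adjusted p = 0.705). The start of *Psmb9* overlaps the start of *Tap1* by 212 bases in the annotation, at the other end from the 3′ reads.

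*Psmb10* encodes the subunit that replaces the *Psmb7* product, the trypsin-like site. Its values were 87.8, 60.6 and 79.1 in control, 143, 157, 143 and 182 with DOX, 59.5, 73.4 and 117 in DOX+IL-17A, and 77.6, 70.3 and 117 with IL-17A. All DOX libraries exceeded all others, and replicate 5 was the highest of both groups that received IL-17A. It rose 2.06-fold with DOX, from 75.8 ± 13.9 (n = 3) to 156 ± 18.2 (n = 4), a log2 fold change of 1.04 ± 0.25 (limma, adjusted p = 0.00789). Without control replicate 3 or DOX replicate 4 the log2 fold change was 0.89 or 0.97, under a fold of 2, with adjusted p of 0.029 and 0.028 (limma). The log2 fold change between DOX+IL-17A and DOX was -0.95 (-1.47 to -0.43) and was not called (limma, adjusted p = 0.175). The gene lies whole within the noncoding *Gm16156* of the opposite strand.

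*Psme1* and *Psme2* encode the alpha and beta subunits of the PA28 activator. The *Psme1* values were 159, 148 and 174 in control, 204, 190, 199 and 211 with DOX, 147, 151 and 192 in DOX+IL-17A, and 200.5, 160 and 193 with IL-17A. Its DOX libraries were above its control libraries, but the change was small, with a log2 fold change of 0.33 and a 95% interval of -0.03 to 0.69 (limma, adjusted p = 0.170). For *Psme2* the values were 36.9, 164 and 167 in control, 200.9, 204, 261 and 333 with DOX, 110, 159 and 241 in DOX+IL-17A, and 224, 150 and 136 with IL-17A. *Psme2* rose with DOX (log2 fold change 1.27 ± 0.43; limma, adjusted p = 0.0444), and 11 of 22 alternatives called it, with adjusted p from 0.0185 to 0.169. On the recovered reads voom, DESeq2 and edgeR gave log2 fold changes of 1.21, 0.99 and 1.03. Without control replicate 1 the limma value was 0.56 (limma, adjusted p = 0.169). Leaving out any 1 of the 4 DOX libraries, DOX+IL-17A replicate 3 or IL-17A replicate 3 also ended the call, at adjusted p of 0.0564 to 0.113 and a log2 fold change of 1.12 to 1.36 (limma). Between DOX+IL-17A and DOX both were uncalled, at -0.31 (-0.67 to 0.05) for *Psme1* and -0.59 (-1.50 to 0.31) for *Psme2*. The mouse genome holds a retrocopy of *Psme2*, *Psme2b*, and reads may be split between near-identical copies.

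*Nlrc5* was low in all libraries, with 13 to 97 reads. Its values were 4.57, 1.52 and 4.36 in control, 6.20, 7.34, 6.85 and 8.67 with DOX, 6.75, 7.25 and 1.94 in DOX+IL-17A, and 4.84, 2.04 and 1.39 with IL-17A. The DOX libraries lay above the control and IL-17A libraries, and the DOX+IL-17A group reached into both ranges. With DOX the log2 fold change was 0.96 with a 95% interval of 0.03 to 1.89 (limma, adjusted p = 0.125), and between DOX+IL-17A and DOX it was -0.52 (-1.45 to 0.41; limma, adjusted p = 0.998).

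**Figure D2:**
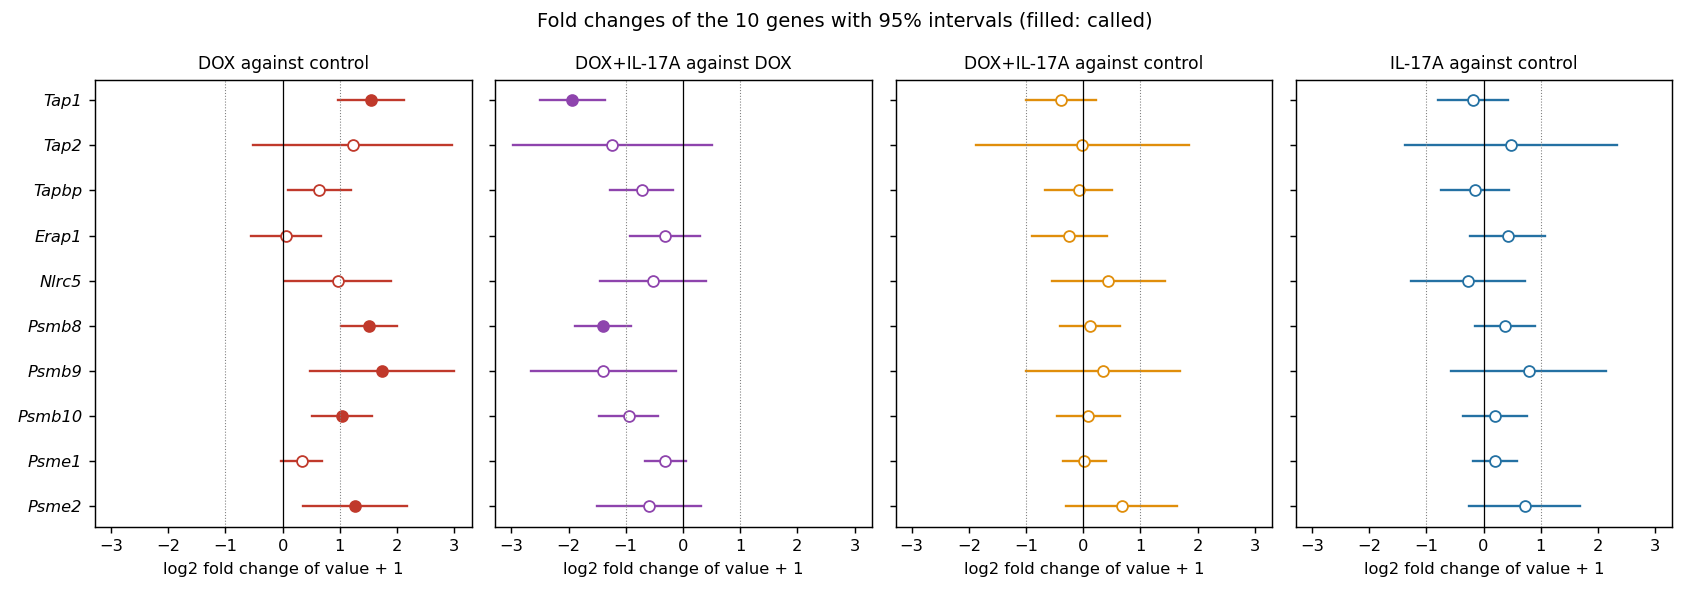
Log2 fold change of value + 1 (x axis) for each of the 10 genes (y axis) in 4 comparisons, with 95% intervals from limma; filled points are called and dotted lines mark a fold of 2. The 5 filled points of DOX against control lie between 1.04 and 1.74, *Tap1* and *Psmb8* are filled between DOX+IL-17A and DOX, and no point is filled in the remaining panels.

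Across the 10 genes, DOX and control libraries did not overlap in 7, all higher with DOX, against 18.5% of all tested genes. These were the 5 called genes with *Psme1* and *Nlrc5*. Between DOX+IL-17A and DOX, 5 of the 10 did not overlap and were lower (*Tap1*, *Tapbp*, *Psmb8*, *Psmb9* and *Psmb10*), against 5.61% of tested genes. None was called higher, against 0.114% of tested genes. The calls of *Tap1* and *Psmb8* are the 2 that fell, and none was left without DOX+IL-17A replicate 3 or without replicate 5 of that group. The median of the 10 genes here was -0.84, and that of all tested genes -0.03. Both comparisons use the same 4 DOX libraries and are not independent.

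Cells with DOX+IL-17A did not differ detectably from control in these genes. By limma 0 of 10 were called and 0 reached an unadjusted p under 0.05, where 6.95% of tested genes were called higher, 5.95% lower and 32.5% reached that unadjusted p. edgeR, DESeq2 and voom also called 0. Log2 fold changes ran from -0.39 for *Tap1* to 0.68 for *Psme2*, with a median of 0.06. Without control replicate 1 *Psme2* was at -0.04, and *Psmb9* went from 0.35 to -0.67. The 95% intervals were -0.999 to 0.23 for *Tap1*, -0.41 to 0.64 for *Psmb8* and -0.47 to 0.65 for *Psmb10*, each of which ends below a fold of 2 upwards. For *Tap2*, *Psmb9*, *Nlrc5* and *Psme2* the upper bounds were 1.84, 1.70, 1.43 and 1.65, so a doubling was not outside the interval.

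IL-17A alone gave 0 calls among the 10 genes, and 0 at an unadjusted p under 0.05, by limma. Of all tested genes 0.00812% were called higher, 0% lower and 3.08% reached that unadjusted p, and voom, DESeq2 and edgeR also called 0 of the 10. Log2 fold changes ran from -0.27 for *Nlrc5* to 0.79 for *Psmb9*, and the *Psmb9* value was -0.23 without control replicate 1. When DOX+IL-17A was compared with IL-17A, 0 of 10 were called by limma, voom, DESeq2 or edgeR, where 4.92% of tested genes were called higher and 4.92% lower. In that comparison *Erap1* alone reached an unadjusted p under 0.05 (log2 fold change -0.67; limma, adjusted p = 0.166), against 28.5% of tested genes. That fit does not pair libraries. With a block for the replicate number, which does, 0 of 10 were called and *Erap1* had an adjusted p of 0.162 (limma).

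The difference between the effect of IL-17A with DOX and without it was tested as an interaction. It was below 0 in all 10 genes, from -2.18 for *Psmb9* to -0.25 for *Nlrc5*, with a median of -1.23 against -0.06 for all tested genes. Without control replicate 1 the *Psmb9* value was -1.16, and the *Nlrc5* value kept its sign in 17 of 21 alternatives. limma called 0 of the 10 and 0% of all tested genes at an adjusted p under 0.05. An unadjusted p under 0.05 was reached by 4 of the 10, *Tap1*, *Psmb8*, *Psmb9* and *Psmb10*, against 4.51% of tested genes. The interaction of *Psmb8* was -1.76 (-2.48 to -1.05; limma, adjusted p = 0.247) and that of *Tap1* -1.75 (-2.59 to -0.91; limma, adjusted p = 0.314). DESeq2 called these 2 genes, against 0.146% of the 12299 genes to which it gave an adjusted p, and edgeR and voom called 0.

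Each immunoproteasome subunit was then set against the constitutive subunit whose place it takes, as the log2 ratio of their values plus 1 within a library. The *Psmb8*/*Psmb5* log2 ratio was -0.68, -0.47 and -0.73 in control, 0.14, 0.05, 0.33 and -0.17 with DOX, -0.74, -0.88 and -2.02 in DOX+IL-17A, and -0.97, -0.54 and -0.998 with IL-17A. The DOX libraries were above all others, and the DOX+IL-17A libraries were below all control libraries. DOX against control differed by 0.71, DOX+IL-17A against DOX by -1.30, and DOX+IL-17A against control by -0.59. The last of these was -0.18 without DOX+IL-17A replicate 5, and the nearest libraries of those groups stood at -0.74 and -0.73. The exact 2-sided permutation p was 0.0571 for the first 2, the smallest that 4 against 3 libraries can give, and 0.1 for the third, the smallest for 3 against 3. *Psmb5* itself was at 84.2 ± 26.2 (n = 3) in control, 143 ± 22.6 (n = 4) with DOX, and DOX+IL-17A gave 144 ± 73.3 (n = 3), so between DOX and control the ratio differed by less than *Psmb8* did. Between DOX+IL-17A and control *Psmb8* itself differed by 0.12. *Psmb5* was not called (log2 fold change 0.80; limma, adjusted p = 0.0594).

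The *Psmb9*/*Psmb6* log2 ratio ran from -6.52 to -2.10 in control, from -2.45 to -1.50 with DOX, from -4.28 to -2.82 with DOX+IL-17A and from -3.72 to -1.78 with IL-17A. DOX and control overlapped (difference 1.75, exact permutation p = 0.114), with a difference of 0.37 without control replicate 1, and DOX+IL-17A lay below DOX without overlap (difference -1.52, exact permutation p = 0.0571). The *Psmb10*/*Psmb7* log2 ratio ran from -1.46 to -0.40 in control and from -0.40 to 0.18 with DOX, with -1.57 to 0.10 in DOX+IL-17A and -1.23 to 0.19 in IL-17A. It was higher with DOX than in control, at the edge of the ranges (difference 0.60, exact permutation p = 0.0571), and DOX+IL-17A overlapped DOX (difference -0.69, exact permutation p = 0.229). The first difference was 0.27 without control replicate 3, and the second was -0.35 without DOX+IL-17A replicate 2 and -1.18 without replicate 5 of that group. Over the 15 comparisons of the 3 ratios, the lowest adjusted p was 0.214.

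**Figure D3:**
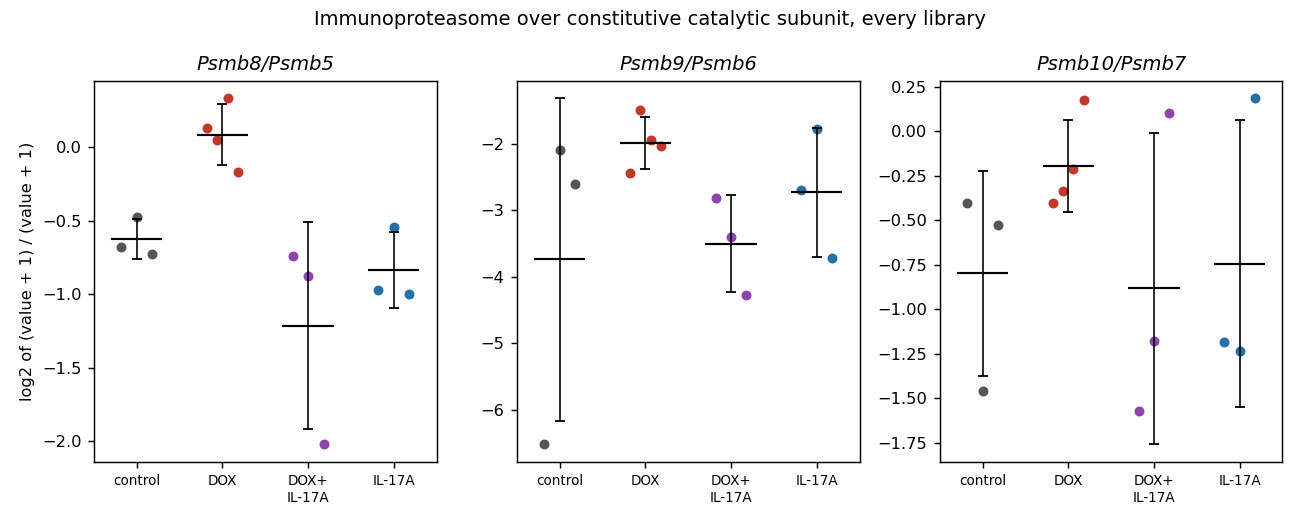
Log2 ratio of value + 1 of an immunoproteasome subunit over its constitutive counterpart (y axis) in every library of the 4 groups (n = 3, 4, 3 and 3); points are libraries, lines means and bars 1 SD. The DOX libraries of *Psmb8*/*Psmb5* lie between -0.17 and 0.33, above all other libraries, and control replicate 1 of *Psmb9*/*Psmb6* lies far below the rest at -6.52.

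Other genes of the pathway were counted in lists, beside the 9.15% of all tested genes called higher and the 6.18% called lower with DOX. Of 14 constitutive 20S core genes, 0 were called with DOX by limma (median log2 fold change 0.46, against 0.09 for all tested genes). *Psmb3* (0.93; limma, adjusted p = 0.00529) and *Psmb4* (0.94; limma, adjusted p = 0.0459) missed the call only by the fold. *Psmb3* was called higher with DOX+IL-17A against control (1.45). Among 18 genes of the 19S particle, which feeds proteins into the core, 1 rose, *Psmd8* (1.39), and of 8 other activators and assembly factors 1 rose, the assembly chaperone gene *Psmg3* (1.56). Of 11 tested class I heavy chain genes and *B2m*, 6 rose and 0 fell (median 1.61), led by *H2-K1* (2.63) and *H2-T22* (2.15). Heavy chain genes are close copies of each other and differ between strains, so the split of reads among them is uncertain. Of 11 other loading factors 2 rose with DOX, the tapasin relative *Tapbpl* (1.89) and the chaperone calreticulin, *Calr* (1.66). Among 9 tested aminopeptidases 1 fell, *Lnpep* (-1.56), whose product trims peptides in endosomes. With 1 or 2 calls each, the 19S, activator, loading factor and aminopeptidase lists are not set apart from all tested genes.

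Regulators of class I genes were called in 5 of 18, all higher with DOX, among them *Irf7* (3.20), *Relb* and *Nfya*. Of 24 interferon response genes 22 rose with DOX (median 2.87), with *Isg15* (4.52) and *Ifi44* (4.46) rising most. DOX+IL-17A against DOX, with 0.325% of all tested genes called lower, gave 3 lower regulators, among them *Irf7* (-1.88), and 11 lower interferon response genes, with *Rsad2* (-2.51) and *Isg15* (-2.33) falling most. In that comparison 0 of the 11 class I chains and 0 in the proteasome, loading factor and aminopeptidase lists were called by limma. All 11 class I chain genes were nevertheless below 0 there, with a median of -0.73, near the -0.84 of the 10 genes. The constitutive 20S core had a median of -0.04. Against control, 14 of 24 interferon response genes and 1 of the 11 class I chain genes, *B2m* (1.11), were called higher with DOX+IL-17A. Of the 10 peptide loading and immunoproteasome genes 0 were, and of all tested genes 6.95%. Whether the lists differ from each other in this was not tested. These lists were written with earlier results of the same data known.

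**Figure D4:**
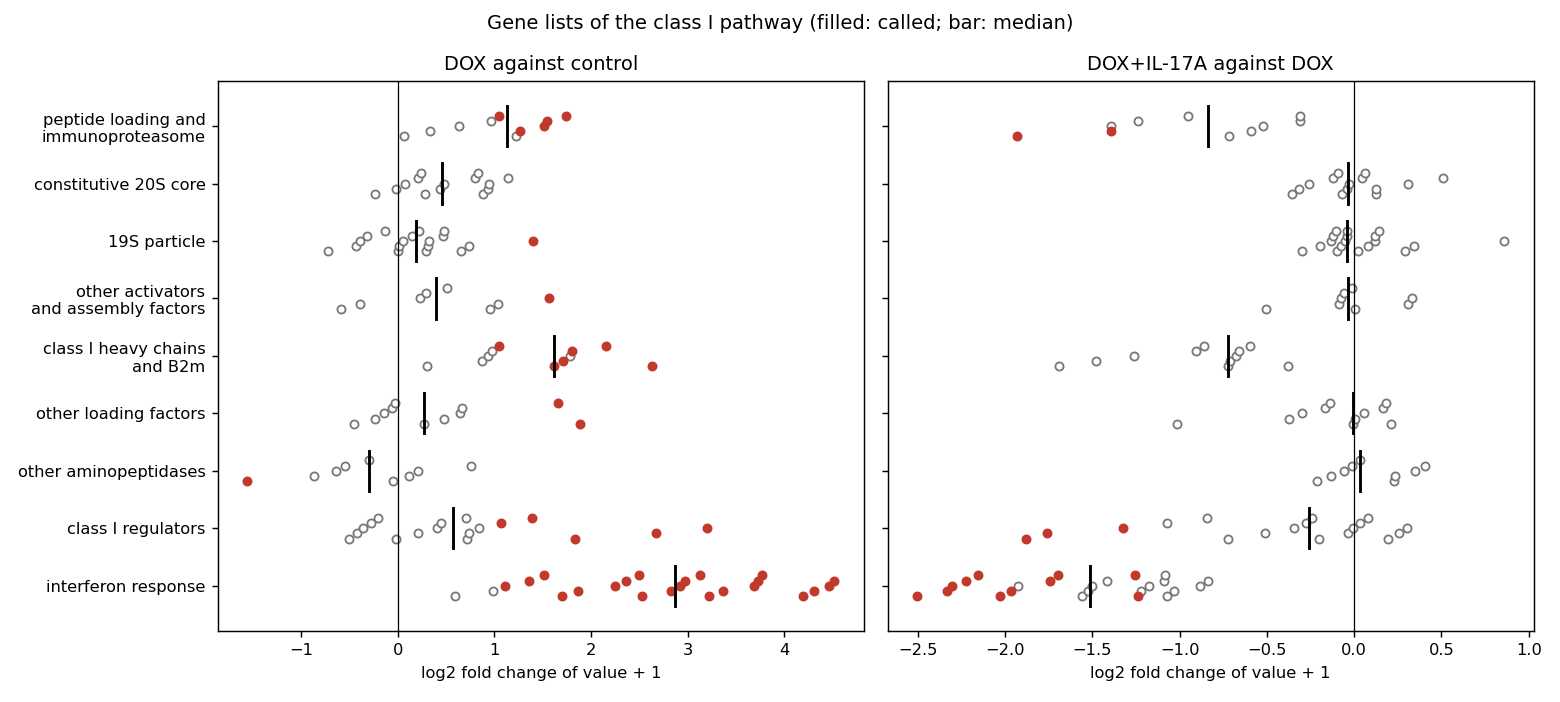
Log2 fold change of value + 1 (x axis) of each tested gene in the 10 peptide loading and immunoproteasome genes and 8 further lists (y axis), for DOX against control and DOX+IL-17A against DOX; filled points are called and bars are list medians. With DOX the medians run from -0.30 for other aminopeptidases to 2.87 for interferon response genes, and the constitutive 20S core stands at 0.46 with no filled point.

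Over the 13 libraries, the mean standardized level of the 10 genes was between 0.63 and 1.08 in the DOX libraries and between -0.85 and 0.21 in the other 9. Outside the 10 genes, the tested genes whose pattern was most like this mean were *Ifi47* (Pearson r = 0.953), *Gbp2b* (0.937), *Nmi* (0.935), *BC023105* (0.931) and *Parp10* (0.919). *Ifi47* encodes an interferon-induced GTPase and went from 18.01 ± 5.84 in control (n = 3) to 61.5 ± 10.7 with DOX (n = 4) and 19.2 ± 2.94 with DOX+IL-17A (n = 3). *BC023105* was listed at 0 in all control libraries and lay between 0.984 and 1.26 with DOX. Among the 10 genes, *Psmb8* was closest to the mean of the other 9 (r = 0.938), followed by *Tap1* (0.800), and *Erap1* (0.171) and *Tap2* (0.360) were farthest. These correlations describe 13 libraries that share 4 conditions, and no test is attached to them.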

How the data were processed

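Bulk RNA of 4T1-Thy1.1 cells was sequenced in 13 libraries, assigned to 4 conditions by their labels. The authors made QuantSeq 3′ mRNA libraries, checked them with FastQC, mapped single 75 base reads to mm10 with STAR, counted them per gene with featureCounts (Trimmomatic is named in the submitters' processing notes) and normalized by TMM. The annotation and strand setting of the counting are not given in the sources used here. The values in the deposited table are this normalized signal. Its values were whole multiples of 1 step per library (100% within 0.1 read), so whole reads were recovered. Of 13223 entries, 1 identical duplicate (*Ifit1*) was dropped. Libraries of a group differed by more than sampling noise (chi-square per degree of freedom 7.65 to 177).

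limma 3.58.1 with trend was fitted to log2(value + 1) of 12319 genes kept by filterByExpr of edgeR 4.0.16 on the recovered reads, with all 4 groups in 1 fit. Calls needed a fold above 2 and a Benjamini-Hochberg adjusted p under 0.05, or the latter alone for the interaction. In DOX+IL-17A against IL-17A, the only comparison with 3 same-numbered pairs, the deviations of all 3 pairs from their group means correlated (r of 0.233, 0.314 and 0.441), so there the numbers were taken to pair libraries, from the data and not from the labels. Ratios were compared by exact 2-sided permutation tests. Neither the main fit nor these tests used the pairing, which entered only through the block for the replicate number among the alternatives. Alternatives were voom, DESeq2 1.42.0 and edgeR's quasi-likelihood test on the recovered reads, library size scaling, other filters, a pseudocount of 0.1, a block for the replicate number, fits of the compared groups only, calls without the fold, and fits that each lacked 1 library. Scripts were tested on simulated counts. All 10 genes are named. From each other list the top 2 called genes in each direction are named for DOX against control and DOX+IL-17A against DOX, with the 5 genes most like the 10 in pattern. *Relb*, *Nfya*, *B2m*, *Psmb3* and *Psmb4* were named after their values were seen, as were single marker genes and overlapping genes. A gene of the regulator list that this rule names is not reported here. The members, lists and tests were chosen with earlier results of these data known. The 95% intervals come from the spread between libraries in limma. Read floors cover counting error only, because reads were counted without molecular identifiers. Coordinates are those of GENCODE M21 and RefSeq on GRCm38, the mm10 build. Software was R 4.3.3 and python 3.11.15 with scipy 1.17.1, pandas 2.3.3 and numpy 2.4.6.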

Additional observations from a re-analysis of the deposited data

Results flagged for a closer look

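*Tap2* in DOX replicate 2, at 67.4, stood apart from the other 3 DOX libraries (12.3 to 17.8). Its gap to the nearest of them was 0.902 of the range of the group, above Dixon's 95% critical value for 4 libraries. Of the 10 genes in the DOX group, the only group with 4 libraries, this was the only value so far from the others. Chance alone sets apart about 1 in 20 groups. The same library was not the highest of its group in *Tap1* (42.5) or *Psmb8* (145), and was the highest in *Psmb9* (38.2).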

How the results depend on the processing

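*Tap1* and *Psmb8* were called higher with DOX in 22 of 22 alternatives, and *Tap2*, *Psme1*, *Erap1* and *Nlrc5* in 0 of 22. The count of the 10 genes called with DOX, 5 in the main test, was 3 with voom, DESeq2, edgeR or only the groups compared, and 2 to 5 without 1 library. *Psmb9* and *Psme2* were the genes most often lost. DOX+IL-17A against DOX, with 2 called, gave 1 with the replicate block and 0 to 2 without 1 library. It gave 0 without DOX+IL-17A replicate 3 or 5, and 1 without DOX replicate 3, DOX replicate 4 or DOX+IL-17A replicate 2. The interaction gave 2 with DESeq2 and 0 in the other alternatives. Scaling by library size shifted the all-gene median to 0.24 (0.09 in the main test) for DOX against control and to 0.20 (0.04) for DOX+IL-17A against control, and left 5 and 0 of the 10 called. The cause of these differences was not tested, except that leaving out a library leaves fewer samples.

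Same-numbered libraries did not deviate together throughout: r was above 0.1 in 8 of 13 same-numbered pairs (mean 0.193, -0.241 to 0.594; different-numbered pairs had a mean of -0.047), so the numbers were taken to pair libraries only in DOX+IL-17A against IL-17A, where the replicate block also left 0 of the 10 called. With the replicate block 4 of the 10 genes were called with DOX, and *Tap1* between DOX+IL-17A and DOX was at -1.85 (limma, adjusted p = 0.0712). As mean differences over same-numbered pairs, the *Psmb9*/*Psmb6* ratio of DOX+IL-17A against control was -1.49 and of IL-17A against control -0.40, and the *Psmb10*/*Psmb7* ratio of DOX+IL-17A against control was 0.46.

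Leaving out 1 library, the ratio differences ran as follows. *Psmb8*/*Psmb5* of DOX+IL-17A against IL-17A ran from -0.61 to 0.028. *Psmb9*/*Psmb6* ran from -1.15 to 1.06 for DOX+IL-17A against control and from -0.38 to 1.83 for IL-17A against control. *Psmb10*/*Psmb7* ran from -0.58 to 0.26 for DOX+IL-17A against control, from -0.41 to 0.30 for IL-17A against control and from -0.63 to 0.33 for DOX+IL-17A against IL-17A. The other ratio differences kept their direction but not their size. *Psmb8*/*Psmb5* ran from 0.63 to 0.80 for DOX against control, from -1.54 to -0.90 for DOX+IL-17A against DOX, from -0.82 to -0.18 for DOX+IL-17A against control and from -0.36 to -0.13 for IL-17A against control. *Psmb9*/*Psmb6* ran from 0.37 to 2.58 for DOX against control, from -1.86 to -1.13 for DOX+IL-17A against DOX and from -1.26 to -0.29 for DOX+IL-17A against IL-17A. *Psmb10*/*Psmb7* ran from 0.27 to 0.80 for DOX against control and from -1.18 to -0.35 for DOX+IL-17A against DOX. Groups of 3 and 4 libraries limit what could be detected, and *Nlrc5*, *Tap2* and *Psmb9* rest on few reads in some libraries.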
